A study of Mus musculus with 11 samples.

Results

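The proteasome is the barrel-shaped protease that degrades ubiquitin-tagged proteins, and the genes for its subunits were compared between colony and monolayer cultures of 2 related mouse lines. The genes were those whose symbol starts with Psm, a letter from a to g and a digit, measured by a probe set that names a single gene. The rule found 48 of the 12393 genes on the array, through 85 probe sets; 46 encode proteasome subunits, activators, an inhibitor or assembly factors, and 2 (Psmc3ip and Psme3ip1) match the rule by name only. They fell into 8 core alpha, 7 core beta, 3 immunoproteasome, 6 base ATPase, 11 other regulatory particle, 3 activator, and 8 inhibitor and assembly genes. Psme2 was not analysed here, because its probe set also names a relative.

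JB6 is a line of mouse skin cells that can be made to grow without anchorage. RT101 is a tumour variant of JB6 and received no treatment, and the parental JB6 clone 41-5A was given basic fibroblast growth factor (bFGF), at 10 ng/ml in the soft-agar cultures. There were 4 groups, each array holding 1 sample of total RNA: RT101 colonies (3 arrays), RT101 monolayer (2), bFGF-JB6 colonies (3) and bFGF-JB6 monolayer (3). Colonies were collected on day 7. Every comparison of RT101 with bFGF-JB6 sets an untreated variant against a treated parental clone, so line and bFGF cannot be told apart, and no untreated JB6 culture was analysed here. Nor can growth in agar be told apart from time in culture, since the labels give no harvest time for monolayers. The labels also give no bFGF dose for bFGF-JB6 monolayers, so in that line growth in agar cannot be told apart from bFGF dose. RT101 is a single variant line and 41-5A a single clone, and the labels do not state whether replicate arrays hold separate cultures. If they do not, the p-values reflect technical spread alone.

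The 20S core particle is a stack of rings. The outer rings of alpha subunits gate the entrance, and the inner rings of beta subunits carry the proteolytic sites on Psmb5, Psmb6 and Psmb7. In cells exposed to interferon, Psmb8, Psmb9 and Psmb10 can take the places of Psmb5, Psmb6 and Psmb7, and the resulting immunoproteasome favours peptides suited to MHC class I molecules. The 19S regulatory particle, with its ring of Psmc ATPases and its Psmd subunits, recognises, deubiquitinates and unfolds substrates, while activators such as PA28 (Psme1 with Psme2) open the core without it.

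Because several members changed together, their promoters were set beside the values. RefSeq windows on GRCm38.p6, from 250 bases before to 50 bases after each start, were at hand for 40 of the 48 genes. The motifs searched on both strands were an interferon-stimulated response element (GAAA, any 2 bases, then GAAA), a gamma-activated site (TTCNNNGAA), an antioxidant response element (TGACNNNGC) and a CCAAT box (CCAAT). The first was found in 5 of 40 member genes (12.5%) and 3.44% of 32851 windows. The 5 were Psmb3, Psmd4, Psmd9, Psme1 and Psmg4, and of these only Psme1 was called higher in RT101 colonies. The second was found in 3 members (7.5%) and 8.3% of all windows. The third was found in 6 members (15%) and 12.4% of all, and the fourth in 15 members (37.5%) and 37.4% of all. Shown first are the 3 genes of the interferon-linked group that were higher in RT101 colonies, then Psmb8, which was not called, and Psma3, the core gene with the largest decrease in bFGF-JB6 colonies. Capitals mark motif matches. Psme1 (chr14:55578244-55578543, plus strand) holds a response element on the minus strand 9 bases after the start. Psmb9 (chr17:34187281-34187580, minus strand) holds a CCAAT box, and 275 of its bases are shared with the window of Tap1, the transporter gene that runs the other way. Psmb10 (chr8:105938343-105938642, minus strand) holds none of the 4 motifs in its window. Psmb8 (chr17:34197945-34198244, plus strand) holds a gamma-activated site 97 bases before the start, and Psma3 (chr12:70974373-70974672, plus strand) holds 3 CCAAT boxes. A match is a string of letters and not a measured binding site.
Psme1: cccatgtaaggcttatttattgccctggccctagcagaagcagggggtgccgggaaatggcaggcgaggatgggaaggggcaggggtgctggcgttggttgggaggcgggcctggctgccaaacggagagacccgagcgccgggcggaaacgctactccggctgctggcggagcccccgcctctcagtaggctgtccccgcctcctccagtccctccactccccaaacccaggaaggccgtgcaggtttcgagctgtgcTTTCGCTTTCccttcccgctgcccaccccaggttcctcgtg
Psmb9: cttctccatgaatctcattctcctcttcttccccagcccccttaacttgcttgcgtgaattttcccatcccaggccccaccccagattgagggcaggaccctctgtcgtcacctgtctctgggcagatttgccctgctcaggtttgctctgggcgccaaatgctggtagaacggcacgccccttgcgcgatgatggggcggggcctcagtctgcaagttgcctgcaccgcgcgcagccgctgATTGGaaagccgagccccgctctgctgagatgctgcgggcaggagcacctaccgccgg
Psmb10: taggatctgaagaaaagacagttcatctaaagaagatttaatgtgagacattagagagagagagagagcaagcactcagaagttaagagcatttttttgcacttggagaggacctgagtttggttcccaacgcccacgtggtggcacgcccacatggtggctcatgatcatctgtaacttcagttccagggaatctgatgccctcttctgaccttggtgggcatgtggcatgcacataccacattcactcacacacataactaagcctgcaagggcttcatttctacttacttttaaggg
Psmb8: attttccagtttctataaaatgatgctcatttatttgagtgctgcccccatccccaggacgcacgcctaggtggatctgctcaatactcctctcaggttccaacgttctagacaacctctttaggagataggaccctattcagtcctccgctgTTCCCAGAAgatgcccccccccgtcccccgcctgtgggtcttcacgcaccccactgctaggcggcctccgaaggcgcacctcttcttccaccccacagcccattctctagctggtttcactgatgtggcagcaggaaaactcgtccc
Psma3: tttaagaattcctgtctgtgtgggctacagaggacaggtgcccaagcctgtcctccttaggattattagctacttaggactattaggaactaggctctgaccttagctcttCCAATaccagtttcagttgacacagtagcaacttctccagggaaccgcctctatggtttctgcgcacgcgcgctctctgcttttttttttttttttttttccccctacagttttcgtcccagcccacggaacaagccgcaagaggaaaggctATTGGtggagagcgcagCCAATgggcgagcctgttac

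Values are log2 signals, on which a difference of 1 is a 2-fold change, and a gene was called at an adjusted p of 0.05 over all 12393 genes, read from its brightest probe set. The arrays had similar distributions (medians of 5.82 to 5.95), and arrays of a group correlated at 0.989 to 0.998 over 22626 probe sets, against 0.934 to 0.983 between groups. The arrays of bFGF-JB6 colonies replicate 3 and bFGF-JB6 monolayer replicate 1 had more signal at the 3' than the 5' end of the Gapdh control (log2 differences of 0.35 and 0.19, against -0.08 to -0.01 elsewhere). Of 10 epidermal keratinocyte markers, 5 or 6 were at or below the lower quartile of each array (3.78 to 3.91), with Krt14 between 3.57 and 3.87 and Cdh1 between 2.32 and 2.50. Krt10, chosen after its values were seen, was brighter: it averaged 5.24 in RT101 colonies, 5.08 in RT101 monolayers, 7.35 in bFGF-JB6 colonies and 6.81 in bFGF-JB6 monolayers. Vim, a mesenchymal filament gene, stood between 12.77 and 13.22. Most proteasome genes were bright: 45 of 48 were at or above the median gene, and Psma3 at a mean of 11.41 was at the 98.7th percentile. The exceptions were Psmb9 (5.64), Psmb8 (3.85) and Psma8, the testis form of an alpha subunit (3.07).

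**Figure D1:**
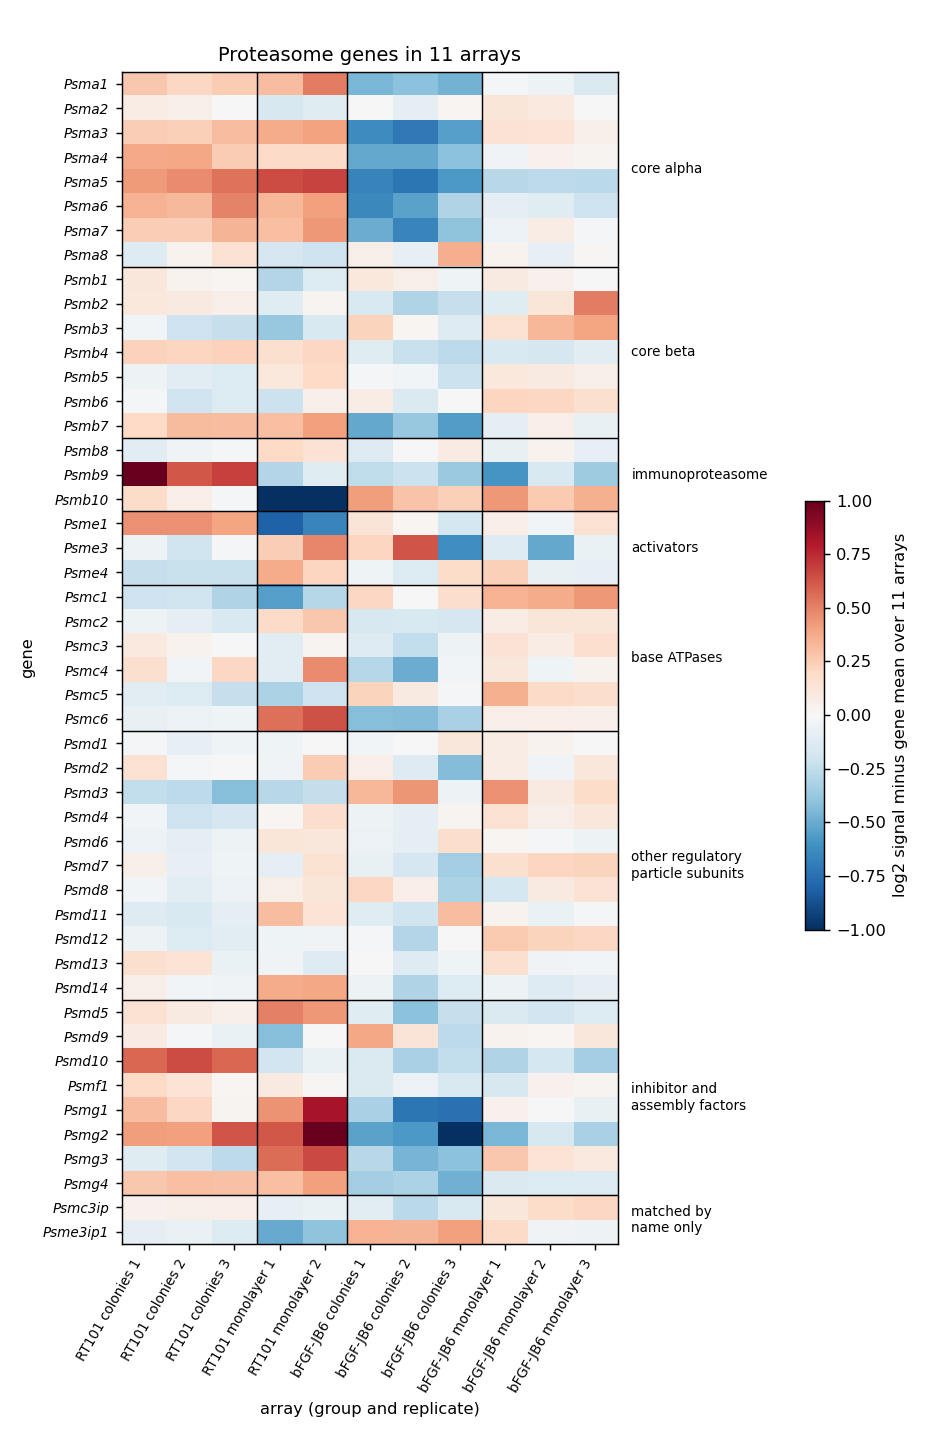
Log2 signal of each of the 48 genes (rows, by role) in each of the 11 arrays (columns, by group), minus the gene's mean over the arrays; colours stop at -1 and 1. The alpha subunits are blue (low) in bFGF-JB6 colonies, apart from Psma2 and Psma8. Psmb10 and Psme1 are lowest in RT101 monolayers, and Psmb9 and Psmd10 are highest in RT101 colonies.

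RT101 colonies had more mRNA of the immunoproteasome subunits Psmb9 and Psmb10 and of the PA28 subunit Psme1 than RT101 monolayers, by close to 2-fold or more. Psmb10, the inducible trypsin-like subunit, measured 7.92, 7.81 and 7.72 in RT101 colonies and 6.53 and 6.73 in RT101 monolayers. In the other line it measured 8.16, 8.03 and 7.98 in bFGF-JB6 colonies and 8.17, 8.0 and 8.10 in bFGF-JB6 monolayers. The RT101 monolayers were the low group, and the other 3 groups lay together between 7.72 and 8.17. The change in RT101 was 1.19 (2.28-fold, SE 0.10, limma adjusted p = 1.06e-06) and that in bFGF-JB6 -0.04 (SE 0.09, adjusted p = 0.826).

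Psme1 was also lowest in RT101 monolayers. Its values were 9.60, 9.60 and 9.54 in RT101 colonies and 8.34 and 8.49 in RT101 monolayers, and they were 9.27, 9.16 and 8.97 in bFGF-JB6 colonies and 9.21, 9.11 and 9.29 in bFGF-JB6 monolayers. It rose by 1.17 in RT101 colonies (2.24-fold, SE 0.11, adjusted p = 1.46e-06), and in bFGF-JB6 colonies the change was -0.07 (SE 0.09, adjusted p = 0.633). The groups of RT101 did not overlap, while those of bFGF-JB6 did.

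Psmb9, the inducible counterpart of Psmb6, had a different pattern. Its values were 6.69, 6.26 and 6.32 in RT101 colonies and 5.35 and 5.52 in RT101 monolayers, against 5.38, 5.43 and 5.27 in bFGF-JB6 colonies and 5.05, 5.49 and 5.28 in bFGF-JB6 monolayers. RT101 colonies stood alone above the other 3 groups. The change was 0.99 in RT101 (1.98-fold, SE 0.14, adjusted p = 0.000111) and 0.09 in bFGF-JB6 (SE 0.13, adjusted p = 0.675). Psmb8, the inducible chymotrypsin-like subunit, lay near the lower quartile of the arrays, at 3.74, 3.81 and 3.83 in RT101 colonies and 4.05 and 4.00 in RT101 monolayers. It was at 3.72, 3.85 and 3.93 in bFGF-JB6 colonies and 3.78, 3.88 and 3.77 in bFGF-JB6 monolayers. The change was -0.23 in RT101, where the groups did not overlap, and 0.02 in bFGF-JB6. Psmb8 was called in none of the comparisons (adjusted p = 0.0771 in RT101). RMA gives no detection call, so whether Psmb8 was measured above background cannot be said.

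The difference between the colony changes, RT101 minus bFGF-JB6, was 1.24 for Psme1 (SE 0.14, adjusted p = 1.77e-05), 1.22 for Psmb10 (SE 0.14, adjusted p = 1.69e-05) and 0.90 for Psmb9 (SE 0.19, adjusted p = 0.00304). Each inducible subunit read below its constitutive partner on the same array. The log2 difference Psmb10 minus Psmb7 was 1.27 higher in RT101 colonies than in RT101 monolayers and 0.41 higher in bFGF-JB6 colonies than in bFGF-JB6 monolayers, with no overlap in either line. For Psmb9 minus Psmb6 the shifts were 1.02 in RT101, without overlap, and 0.31 in bFGF-JB6, with overlap. For Psmb8 minus Psmb5 they were 0.02 in RT101 and 0.20 in bFGF-JB6, with overlapping arrays in both lines. These differences between probe signals are no molar ratios and were not tested. In RT101 Psmb10 and Psmb9 changed by 1.19 and 0.99, and Psmb7 and Psmb6 by -0.08 and -0.04. In bFGF-JB6 Psmb10, Psmb9 and Psmb8 changed by -0.04, 0.09 and 0.02, and Psmb7, Psmb6 and Psmb5 by -0.45, -0.22 and -0.17. The bFGF-JB6 shifts thus came mostly from lower constitutive signals.

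**Figure D2:**
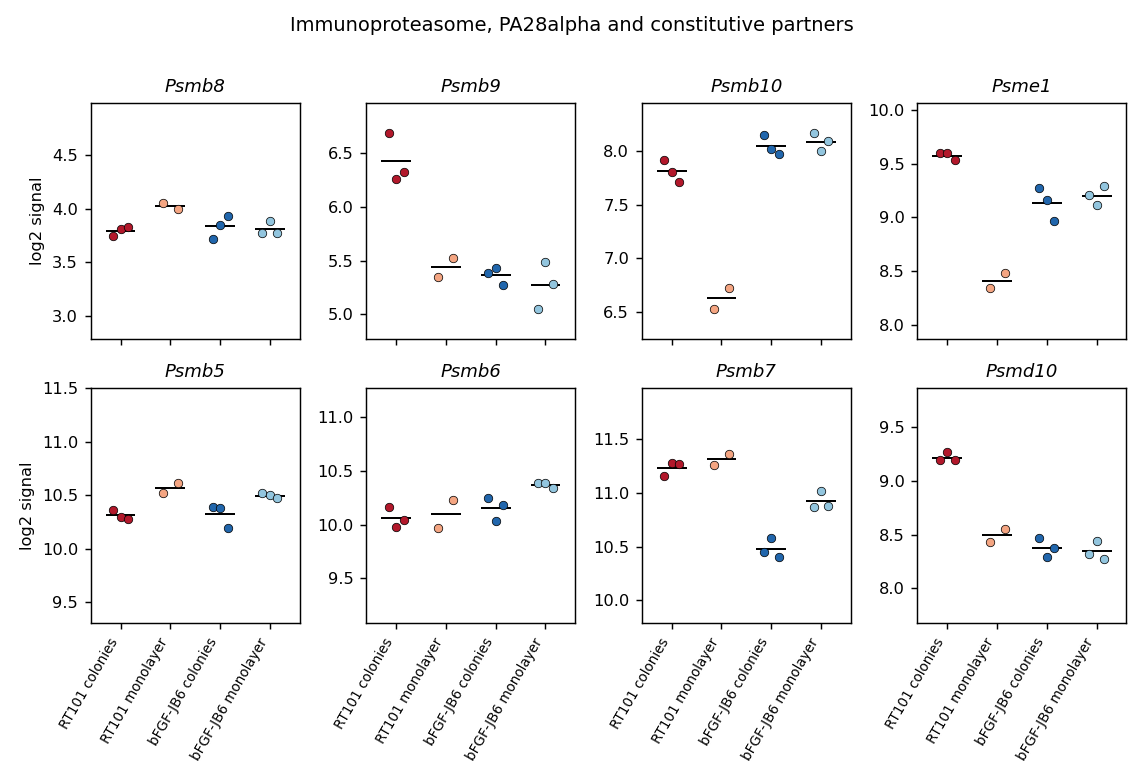
Log2 signal of the immunoproteasome subunits, their constitutive partners, Psme1 and Psmd10 in each array (points) with group means (lines), for RT101 colonies, RT101 monolayer, bFGF-JB6 colonies and bFGF-JB6 monolayer. Psmb10 and Psme1 are low in the 2 RT101 monolayers, Psmb9 is high in the 3 RT101 colonies, and Psmb8 stays near 4 throughout.

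Over all members, RT101 colonies had 6 genes higher (12.5% of 48) and 8 lower (16.7%) than RT101 monolayers. Over all genes 17% were called higher and 15.4% lower, and in the brighter 6197 genes, those not below the median level, 27.2% and 24.7%. The members' shares were thus near or below the background. With each array centred on its median the split was 5 higher and 14 lower, and the count of lower genes was 5 without either RT101 monolayer array.

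Genes of MHC class I antigen processing were read beside the immunoproteasome genes. In RT101 colonies 11 of the 11 measured genes rose (of 12 listed), with a median change of 0.84, against -0.01 over all genes, of which 17% rose. In bFGF-JB6 colonies 3 of 11 rose (27.3%, against 14.1% of all and 19.8% of brighter genes), with a median of 0.10. The difference between the changes was called higher for all 11 (100%, against 15% of all and 24.3% of brighter genes). Tapbp, the peptide-loading factor tapasin, measured 10.38, 10.34 and 10.24 in RT101 colonies and 7.73 and 7.90 in RT101 monolayers, a change of 2.50 (5.67-fold, SE 0.10, adjusted p = 6.67e-10). In bFGF-JB6 it measured 9.95, 9.83 and 9.69 in colonies and 9.57, 9.60 and 9.62 in monolayers. As with Psmb10, the RT101 monolayers were the low group. The heavy-chain genes H2-K1 and H2-D1 rose by 1.61 and 1.42 in RT101 colonies (adjusted p = 1.01e-07 and 1.61e-06), but their probes can read near-identical relatives.

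Tap2, a subunit of the peptide transporter, rose by 0.84 in RT101 colonies (adjusted p = 2.6e-05) and by 0.30 in bFGF-JB6 colonies (adjusted p = 0.0235); in bFGF-JB6 the call was lost in 4 of 11 single-array omissions (adjusted p 0.0542 to 0.0837). Tap1, the divergent neighbour of Psmb9, measured 6.47, 6.42 and 6.30 in RT101 colonies and 6.09 and 5.95 in RT101 monolayers, a change of 0.38 (adjusted p = 0.0319). Its call was lost in 4 of 11 single-array omissions (adjusted p 0.0614 to 0.204). In bFGF-JB6 it stood at 5.63, 5.99 and 5.64 in colonies and 6.08, 5.83 and 5.89 in monolayers.

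Among 13 of 14 interferon signalling genes, 6 rose in RT101 colonies (46.2%, against 17% of all and 27.2% of brighter genes) and limma called none lower (0 at an unadjusted p under 0.05). In bFGF-JB6 colonies 3 rose (23.1%, against 14.1% and 19.8%) and 5 fell (38.5%, against 15.3% and 24.9%). Irf1, a transcription factor of the interferon response, rose by 0.95 in RT101 (adjusted p = 8.4e-06) and by 0.48 in bFGF-JB6 (adjusted p = 0.00138). The kinase gene Tyk2 rose by 1.20 in RT101 (adjusted p = 4.72e-07) and changed by 0.01 in bFGF-JB6 (adjusted p = 0.955). Factors of the type I interferon response took the other direction in bFGF-JB6: Irf7 fell by 1.47 (adjusted p = 3.17e-07) and Irf9 by 1.33 (adjusted p = 5.77e-07) in its colonies, against changes of 0.16 (adjusted p = 0.373) and 0.62 (adjusted p = 0.000955) in RT101 colonies. Stat2 rose by 0.88 in RT101 (adjusted p = 0.0106) and fell by 0.95 in bFGF-JB6 (adjusted p = 0.00358). Without RT101 monolayer replicate 1, the RT101 call of Stat2 was lost (adjusted p = 0.0775).

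Leukocytes express the immunoproteasome constitutively, so leukocyte and macrophage markers were read in the same arrays. In these bulk samples, more cells of a type and more RNA per cell cannot be told apart. The summed linear signal of the 12 markers was 424.2 to 443.0 in RT101 colonies and 382.2 to 399.3 in RT101 monolayers, and 938 to 981 in bFGF-JB6 colonies and 688 to 699 in bFGF-JB6 monolayers. Between 4 and 6 of the 12 were below the lower quartile of each array. Ptprc, the pan-leukocyte gene CD45, was between 2.33 and 2.72 everywhere. In RT101 colonies 2 of 12 rose (16.7%, Lyz2 and Cd14), near the 17% of all genes and below the 27.2% of brighter genes. In bFGF-JB6 colonies 4 of 12 rose (33.3%, Cd68, Csf1r, Mpeg1 and Lyz2), against 14.1% and 19.8%. Limma called none lower in either, against 2 and 1 at an unadjusted p under 0.05. None of 4 lymphocyte markers (of 6 listed) was called by limma in any comparison, and none had an unadjusted p under 0.05 in RT101 colonies against monolayers. The fibroblast list moved with the RT101 colonies, where 5 of 9 rose (55.6%, against 17% of all and 27.2% of brighter genes). The summed signal of the 9 was 18558 to 19219 there, against 11731 to 12386 in RT101 monolayers. In bFGF-JB6 colonies 4 of the 9 rose (44.4%, against 14.1% and 19.8%) and 2 fell (22.2%, against 15.3% and 24.9%). Their summed signal was 13112 to 14535 in bFGF-JB6 colonies and 14823 to 15609 in bFGF-JB6 monolayers. Of 10 keratinocyte markers, of which 5 or 6 were at or below the lower quartile of each array, 2 (Krt1 and Krt10) rose in bFGF-JB6 colonies. That is 20%, against 14.1% of all genes and 19.8% of brighter genes. The summed signal of the 10 was 165 to 181 in RT101 colonies and 168 to 178 in RT101 monolayers. In the other line it was 292 to 313 in bFGF-JB6 colonies and 234 to 250 in bFGF-JB6 monolayers. Limma called none of the 10 in RT101 colonies and none of 5 endothelial markers in either line (0 at an unadjusted p under 0.05). The part of these marker genes in the result was not tested.

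In bFGF-JB6 colonies a larger share of the proteasome genes than of all genes was lower than in bFGF-JB6 monolayers. Of 48 genes 19 fell (39.6%), 28 were not called and 1 rose (2.08%), against 15.3% lower and 14.1% higher over all genes, and 24.9% lower and 19.8% higher in the brighter 6197 genes. The change was below 0 in 39 of 48, with a median of -0.16, against 0.03 over all genes, and none passed 2-fold. The median signal of the 48 genes was 9.67, 9.58 and 9.62 in RT101 colonies and 9.52 and 9.76 in RT101 monolayers, and 9.31, 9.28 and 9.30 in bFGF-JB6 colonies and 9.69, 9.73 and 9.65 in bFGF-JB6 monolayers. The bFGF-JB6 colonies were below the other 8 arrays.

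Genes of the alpha ring made up 6 of those 19. None of the 8 core alpha genes was called in RT101 colonies (median change -0.03, limma adjusted p from 0.124 to 0.933). Of the 8, 1 had an unadjusted p under 0.05 there. In bFGF-JB6 colonies 6 of 8 fell (75%, median -0.38), against 15.3% of all genes and 24.9% of brighter genes. The count was also 6 without both arrays of raised 3' signal, and 5 without bFGF-JB6 colonies replicate 1, where Psma6 was lost (adjusted p = 0.0559). With all probe sets of a gene averaged, 5 fell.

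Among them Psma3 changed most. It measured 11.65, 11.65 and 11.72 in RT101 colonies and 11.77 and 11.81 in RT101 monolayers, and 10.78, 10.69 and 10.85 in bFGF-JB6 colonies and 11.55, 11.54 and 11.46 in bFGF-JB6 monolayers. The 3 bFGF-JB6 colonies were lower than the other 8 arrays. The change was -0.12 in RT101 (SE 0.09, adjusted p = 0.352) and -0.74 in bFGF-JB6 (0.598-fold, SE 0.08, adjusted p = 7.99e-06).

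Psma4 measured 11.44, 11.45 and 11.32 in RT101 colonies and 11.26 and 11.26 in RT101 monolayers, and 10.55, 10.55 and 10.65 in bFGF-JB6 colonies and 11.03, 11.11 and 11.09 in bFGF-JB6 monolayers. The change was 0.15 in RT101 (SE 0.09, adjusted p = 0.234) and -0.49 in bFGF-JB6 (0.711-fold, SE 0.08, adjusted p = 0.000275). In neither line did its groups overlap. Psma7 stood at 9.89, 9.88 and 9.98 in RT101 colonies and 9.94 and 10.07 in RT101 monolayers, which overlap. It measured 9.15, 8.98 and 9.24 in bFGF-JB6 colonies and 9.58, 9.71 and 9.62 in bFGF-JB6 monolayers, a change of -0.52 (adjusted p = 0.000536), and its other probe set gave -0.45. Psma1 and Psma5 fell by 0.38 and 0.39 in bFGF-JB6 (adjusted p = 0.00294 and 0.00161), and their RT101 changes of -0.17 and -0.18 had the same sign and were not called (adjusted p = 0.191 and 0.131). Psma6 fell by 0.35 in bFGF-JB6 (adjusted p = 0.0134). Psma2 changed by 0.19 in RT101 and -0.10 in bFGF-JB6 (not called), and Psma8 stayed at the bottom of the scale, between 2.87 and 3.44.

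Over all members the difference between the colony changes was called higher for 10 of 48 (20.8%) and lower for 1 (2.08%), against 15% and 12.7% of all genes and 24.3% and 18% of the brighter 6197 genes. The share of higher calls was thus within the background range. Median centring moved the median difference over all genes from -0.04 to -0.12, and the shares of all genes under it are not given here. With each array centred on its median the split was 7 higher and 4 lower, and the lower count was 0 in 6 of the 11 single-array omissions and 3 without bFGF-JB6 colonies replicate 2.

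The difference between the colony changes was above 0 for all 8 alpha genes (median 0.33, against -0.04 over all genes). It was called higher for 3 (37.5%, against 15% of all and 24.3% of brighter genes). It was 0.64 for Psma4 (SE 0.12, adjusted p = 0.000906), 0.62 for Psma3 (SE 0.12, adjusted p = 0.00119) and 0.43 for Psma7 (SE 0.13, adjusted p = 0.0268). The call for Psma7 was lost in 4 of 11 single-array omissions (adjusted p 0.055 to 0.126). For Psma1 and Psma5 the differences of 0.21 and 0.20 were not called, with 95% intervals of -0.06 to 0.47 and -0.04 to 0.45.

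**Figure D3:**
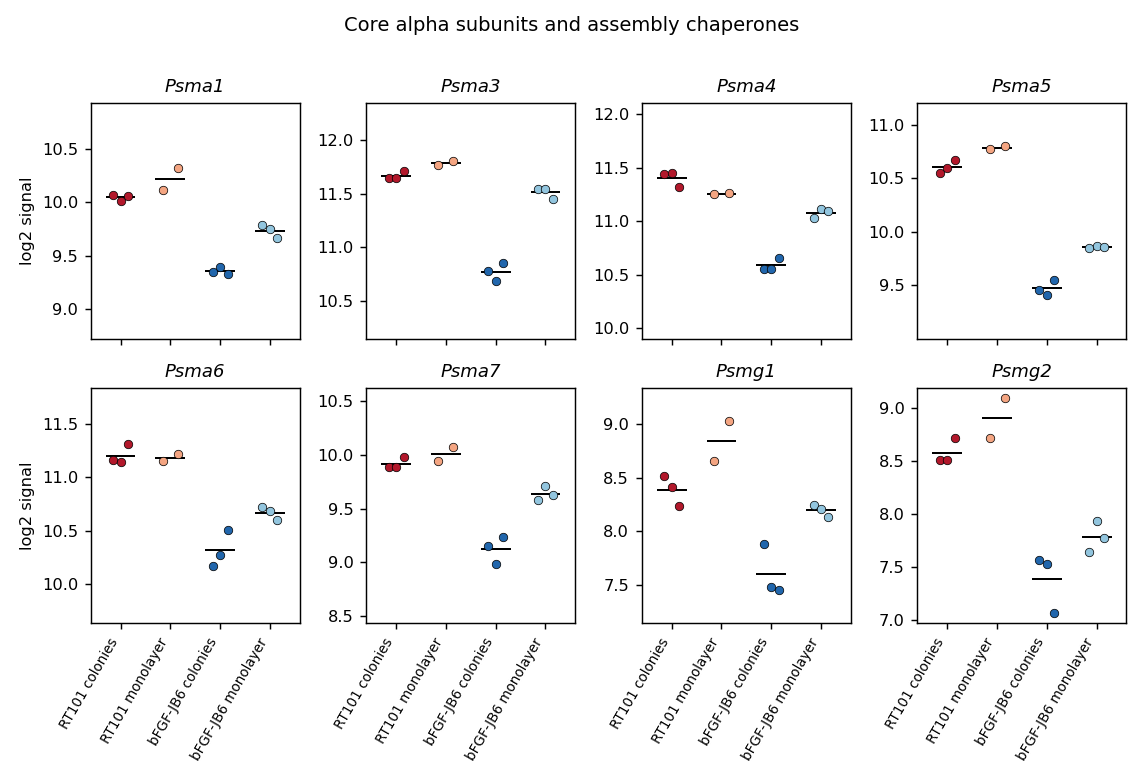
Log2 signal of 6 alpha subunit genes and the assembly chaperones Psmg1 and Psmg2 in each array (points) with group means (lines), for RT101 colonies, RT101 monolayer, bFGF-JB6 colonies and bFGF-JB6 monolayer. The bFGF-JB6 colonies are lowest in all 8 panels, and Psma3 stands between 10.69 and 10.85 there against 11.46 to 11.81 in the other 3 groups.

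Of the 7 core beta genes 2 fell in bFGF-JB6 colonies (28.6%), near the share of brighter genes (24.9%, and 15.3% of all genes). All 7 changes were below 0 (median -0.22). Psmb7, the constitutive trypsin-like subunit, measured 11.16, 11.28 and 11.27 in RT101 colonies and 11.26 and 11.37 in RT101 monolayers, which overlap. It measured 10.45, 10.58 and 10.40 in bFGF-JB6 colonies and 10.87, 11.02 and 10.88 in bFGF-JB6 monolayers, a change of -0.45 (0.733-fold, SE 0.09, adjusted p = 0.00121). Its difference between the colony changes, 0.37, was called (adjusted p = 0.0464) but lost in 9 of 11 single-array omissions. With both RT101 monolayers kept, those adjusted p were 0.0511 to 0.107.

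Of the other catalytic genes, Psmb5 was called in RT101 colonies and Psmb6 in neither line. Psmb5, the chymotrypsin-like subunit, measured 10.36, 10.30 and 10.28 in RT101 colonies and 10.52 and 10.61 in RT101 monolayers, a change of -0.25 (adjusted p = 0.0486) whose call was lost in 8 of 11 single-array omissions (adjusted p 0.0555 to 0.242). It measured 10.39, 10.38 and 10.20 in bFGF-JB6 colonies and 10.52, 10.50 and 10.47 in bFGF-JB6 monolayers (change -0.17, adjusted p = 0.136). Psmb6, the caspase-like subunit, changed by -0.04 in RT101 (adjusted p = 0.857) and by -0.22 in bFGF-JB6 (adjusted p = 0.104). Its values were 10.16, 9.98 and 10.04 in RT101 colonies and 9.97 and 10.23 in RT101 monolayers, and 10.25, 10.03 and 10.18 in bFGF-JB6 colonies and 10.39, 10.38 and 10.34 in bFGF-JB6 monolayers.

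The structural beta genes gave 1 call in each line. Psmb1 rose by 0.27 in RT101 colonies (adjusted p = 0.0356), a call lost in 4 of 11 single-array omissions (adjusted p 0.061 to 0.279). Its 2 other probe sets gave -0.33 and 0.15 in RT101 colonies, and neither was called. Psmb2 fell by 0.40 in bFGF-JB6 colonies (adjusted p = 0.0324), also lost in 4 (adjusted p 0.0582 to 0.147), and bFGF-JB6 monolayer replicate 3 at 8.44 stood above the other monolayers at 7.81 and 8.05. Psmb3 and Psmb4 were called in neither colony comparison.

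The regulatory particle had 3 of 17 genes lower in RT101 colonies (17.6%, against 15.4% of all and 24.7% of brighter genes; median change -0.06). In bFGF-JB6 colonies 6 of 17 were lower (35.3%, against 15.3% and 24.9%; median -0.15), with none called higher by limma in either, and none at an unadjusted p under 0.05. Of those 6, 4 were base ATPases, the motor subunits that unfold substrates. Psmc6 fell in both lines: it measured 9.94, 9.96 and 9.97 in RT101 colonies and 10.56 and 10.65 in RT101 monolayers, a change of -0.65 (0.637-fold, SE 0.08, adjusted p = 3.39e-05). It measured 9.59, 9.58 and 9.68 in bFGF-JB6 colonies and 10.07, 10.08 and 10.06 in bFGF-JB6 monolayers, a change of -0.45 (adjusted p = 0.000368). Its other 2 probe sets, with mean signals of 5.48 and 7.70, gave -0.43 and -0.31 in RT101, and 0.27 and 0.50 in bFGF-JB6, 1 of them called higher, so the direction for Psmc6 in bFGF-JB6 is uncertain.

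Psmc2 fell by 0.33 in RT101 colonies (adjusted p = 0.00608) and by 0.26 in bFGF-JB6 colonies (adjusted p = 0.0148). Its calls were lost without RT101 monolayer replicate 2 (adjusted p = 0.0605) and without bFGF-JB6 monolayer replicate 3 (adjusted p = 0.0526). Psmc1 and Psmc3 fell in bFGF-JB6 by 0.26 and 0.27 (adjusted p = 0.0491 and 0.0259), and their calls were lost in 7 and 3 of 11 single-array omissions (adjusted p up to 0.167 and 0.0948). For Psmc1 the difference between the colony changes was 0.44 (adjusted p = 0.0274), lost in 5 omissions (adjusted p 0.0585 to 0.170). Psmc4 and Psmc5 were called in neither colony comparison.

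Among the 11 other subunits of the particle, the lid genes Psmd7 and Psmd12 fell in bFGF-JB6 colonies, by 0.39 (adjusted p = 0.00614) and 0.33 (adjusted p = 0.0117). Psmd7 measured 9.64, 9.50 and 9.53 in RT101 colonies and 9.49 and 9.73 in RT101 monolayers, and 9.50, 9.41 and 9.23 in bFGF-JB6 colonies and 9.73, 9.79 and 9.80 in bFGF-JB6 monolayers. Its groups overlap in RT101 and not in bFGF-JB6. Its 2 other probe sets gave -0.19 and 0.25 in bFGF-JB6 colonies, and neither was called, so the fall there rests on the brightest probe set. Of the 2, 1 was called lower in RT101 colonies (-0.38). Psmd14, the deubiquitinase of the lid, fell in RT101 by 0.38 (adjusted p = 0.00565), with 10.38, 10.30 and 10.29 in RT101 colonies and 10.70 and 10.71 in RT101 monolayers. In bFGF-JB6 it measured 10.27, 10.02 and 10.19 in colonies and 10.27, 10.19 and 10.24 in monolayers. Of the 11, 7 (Psmd1, the scaffold Psmd2, the ubiquitin receptor Psmd4, Psmd6, Psmd8, Psmd11 and Psmd13) were called in none of the 5 contrasts by their brightest probe sets. The other probe set of Psmd6 was called lower between monolayers (-0.60), and of the 5 others of Psmd11, 1 was called lower in RT101 colonies (-0.45), 1 higher between monolayers (0.51) and 2 lower between colonies (down to -0.63). The difference between the colony changes was called by limma for none of the 11, and at an unadjusted p under 0.05 it was above 0 for 1 and below 0 for 1.

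**Figure D4:**
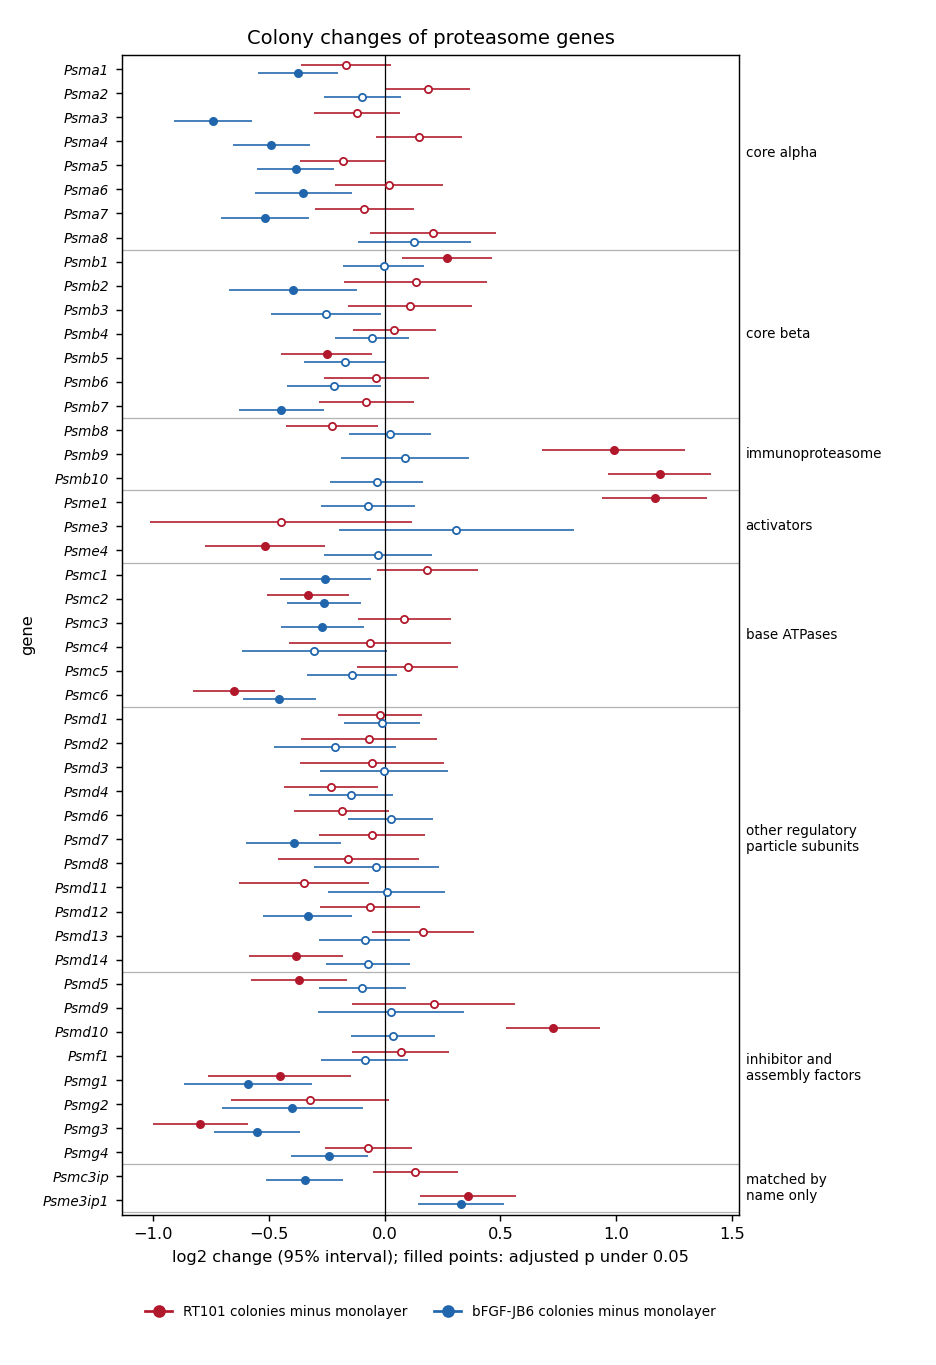
Log2 change in colonies against monolayer for each of the 48 genes in RT101 and in bFGF-JB6 (points) with 95% intervals (lines); filled points have an adjusted p under 0.05. Psmb10 (1.19), Psme1 (1.17) and Psmb9 (0.99) lie far right in RT101 alone, and most alpha subunits lie left of 0 in bFGF-JB6.

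The other activators did not move with Psme1. Psme4, the nuclear activator PA200, measured 8.85, 8.86 and 8.86 in RT101 colonies and 9.45 and 9.30 in RT101 monolayers, a change of -0.52 (0.699-fold, SE 0.12, adjusted p = 0.00425). Without RT101 monolayer replicate 1 the change was -0.44 (adjusted p = 0.0585). In bFGF-JB6 it measured 9.04, 8.95 and 9.27 in colonies and 9.33, 9.01 and 9.0 in monolayers. The difference between the colony changes was -0.49 (adjusted p = 0.0379), a call lost in 7 of 11 single-array omissions. With both RT101 monolayers kept, those adjusted p were 0.0637 to 0.0922. Psme3, the nuclear PA28 gamma subunit, measured 8.17, 8.03 and 8.21 in RT101 colonies and 8.47 and 8.71 in RT101 monolayers. It varied within the other line, with 8.44, 8.85 and 7.60 in bFGF-JB6 colonies and 8.10, 7.71 and 8.16 in bFGF-JB6 monolayers, and was called in none of the 5 contrasts by its brightest probe set. Of its 2 other probe sets, 1 was called lower in RT101 colonies (-0.68).

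Assembly factors differed among themselves. Psmd10 (gankyrin), a chaperone of the ATPase base that also binds cell-cycle regulators, rose in RT101 colonies. It measured 9.19, 9.27 and 9.20 in RT101 colonies and 8.43 and 8.56 in RT101 monolayers, against 8.47, 8.29 and 8.37 in bFGF-JB6 colonies and 8.31, 8.44 and 8.28 in bFGF-JB6 monolayers. Like Psmb9, it was high in RT101 colonies alone. The change was 0.73 in RT101 (1.65-fold, SE 0.09, adjusted p = 3.98e-05) and 0.04 in bFGF-JB6 (adjusted p = 0.809), and their difference was 0.69 (SE 0.13, adjusted p = 0.000958).

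All 4 Psmg genes, whose products are chaperones of core assembly, fell in bFGF-JB6 colonies, and Psmg1 and Psmg3 fell in RT101 colonies too. These 4 were the lower calls among the 8 inhibitor and assembly genes (50%, against 15.3% of all and 24.9% of brighter genes). In RT101 colonies 3 of the 8 were lower (37.5%, against 15.4% and 24.7%) and 1 higher (12.5%, against 17% and 27.2%). Psmg3 measured 8.05, 7.98 and 7.91 in RT101 colonies and 8.72 and 8.82 in RT101 monolayers (change -0.80, 0.576-fold, SE 0.10, adjusted p = 2.1e-05). It measured 7.89, 7.70 and 7.76 in bFGF-JB6 colonies and 8.44, 8.30 and 8.27 in bFGF-JB6 monolayers (change -0.55, 0.682-fold, SE 0.09, adjusted p = 0.000255). Psmg1 fell by 0.45 in RT101 (adjusted p = 0.0256), a call lost in 3 of 11 single-array omissions (adjusted p 0.0521 to 0.290), and by 0.59 in bFGF-JB6 (adjusted p = 0.00313). Psmg2, the partner of Psmg1, fell by 0.40 (adjusted p = 0.0486) and Psmg4, the partner of Psmg3, by 0.24 (adjusted p = 0.0314) in bFGF-JB6 colonies. Those 2 calls were lost in 6 and 5 of 11 omissions (adjusted p up to 0.176 and 0.0827). In RT101 colonies their changes were -0.32 (adjusted p = 0.148) and -0.07 (adjusted p = 0.617), and the other probe set of Psmg2 was called lower there (-0.43). Psmd5, another base chaperone, fell by 0.37 in RT101 (adjusted p = 0.00874), which was lost without RT101 monolayer replicate 1 (adjusted p = 0.0762). Psmd9 and the inhibitor Psmf1 were called in neither colony comparison by their brightest probe sets. The 3 other Psmf1 probe sets, with mean signals of 3.80 to 6.36, gave 0.10 to 0.68 in RT101 colonies, 2 of them called higher, and 0.32 to 0.44 in bFGF-JB6 colonies, all 3 called higher, so the result for Psmf1 depends on the probe set. The difference between the colony changes was not called for any of the 4 Psmg genes.

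The lines were then compared with each other. In monolayer, RT101 had 14 of 48 genes higher (29.2%) and 11 lower (22.9%) than bFGF-JB6, against 23.2% and 21.2% of all genes and 33.7% and 32.7% of the brighter 6197 genes. These shares were near the background. With median centring the split was 18 higher and 7 lower. That centring moved the median over all genes from 0.05 to 0.14, and the shares of all genes under it are not given here. The lower count was 7 without bFGF-JB6 monolayer replicate 2, and it also dropped without RT101 monolayer replicate 1. In colonies, RT101 had 19 genes higher (39.6%) and 4 lower (8.33%), against 22.7% and 20.7% of all genes and 34.7% and 29.8% of the brighter 6197 genes. Both comparisons share their arrays with the colony comparisons above, so their values are no independent measurements.

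Most alpha subunit genes and assembly factors were higher in RT101. In colonies 6 of 8 alpha genes were higher (75%, median difference 0.81), against 22.7% of all genes and 34.7% of brighter genes. In monolayers 5 of 8 were higher (62.5%, median 0.32), against 23.2% and 33.7%. Among the alpha genes Psma5 differed most, with 10.55, 10.60 and 10.67 in RT101 colonies against 9.45, 9.41 and 9.55 in bFGF-JB6 colonies (1.13, 2.19-fold, SE 0.08, adjusted p = 3.75e-08). Its monolayers were at 10.78 and 10.80 in RT101 and 9.85, 9.86 and 9.86 in bFGF-JB6 (0.93, 1.9-fold, adjusted p = 7.7e-07). The chaperone gene Psmg2 was at 8.51, 8.51 and 8.72 in RT101 colonies and 7.56, 7.52 and 7.07 in bFGF-JB6 colonies (1.20, 2.29-fold, SE 0.14, adjusted p = 8.95e-06), and at 8.71 and 9.09 in RT101 monolayers and 7.64, 7.94 and 7.77 in bFGF-JB6 monolayers (1.12, 2.18-fold, adjusted p = 4.56e-05). Of the 8 inhibitor and assembly genes, 6 were higher in RT101 colonies (75%) and 5 in RT101 monolayers (62.5%), against the same background shares. Limma called none of the 8 lower, also at an unadjusted p under 0.05.

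Several members were lower in RT101 monolayers. Psmb10 differed by -1.46 from bFGF-JB6 monolayers (0.363-fold, SE 0.10, adjusted p = 6.19e-08), and Psme1 had a difference of -0.79 (0.577-fold, adjusted p = 2.62e-05). In colonies the difference was -0.24 for Psmb10 (adjusted p = 0.0516) and 0.44 for Psme1 (adjusted p = 0.00142), and 1.06 for Psmb9 (2.09-fold, adjusted p = 1.13e-05). Of the 11 MHC class I genes 9 were lower in RT101 monolayers than in bFGF-JB6 monolayers (81.8%, against 21.2% of all genes; median -0.67). The same 2 RT101 monolayer arrays enter these differences and the RT101 colony changes.

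Psmc1, an ATPase whose tail opens the core gate, was lower in RT101 in both states, at 7.94, 7.95 and 7.85 in RT101 colonies against 8.36, 8.16 and 8.32 in bFGF-JB6 colonies (-0.36, adjusted p = 0.00478), and 7.60 and 7.86 in RT101 monolayers against 8.50, 8.52 and 8.58 in bFGF-JB6 monolayers (-0.80, 0.572-fold, adjusted p = 1.72e-05). Psmd3, a lid subunit, was lower in RT101 too, in colonies (-0.55, adjusted p = 0.0029) and in monolayers (-0.50, adjusted p = 0.0112), the second call being lost without RT101 monolayer replicate 1 (adjusted p = 0.0664). Psmb3 was lower in RT101 monolayers (-0.56, 0.679-fold, adjusted p = 0.00197) and was not called in colonies (-0.19, adjusted p = 0.188), where its other probe set was called lower (-0.36).

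**Figure D5:**
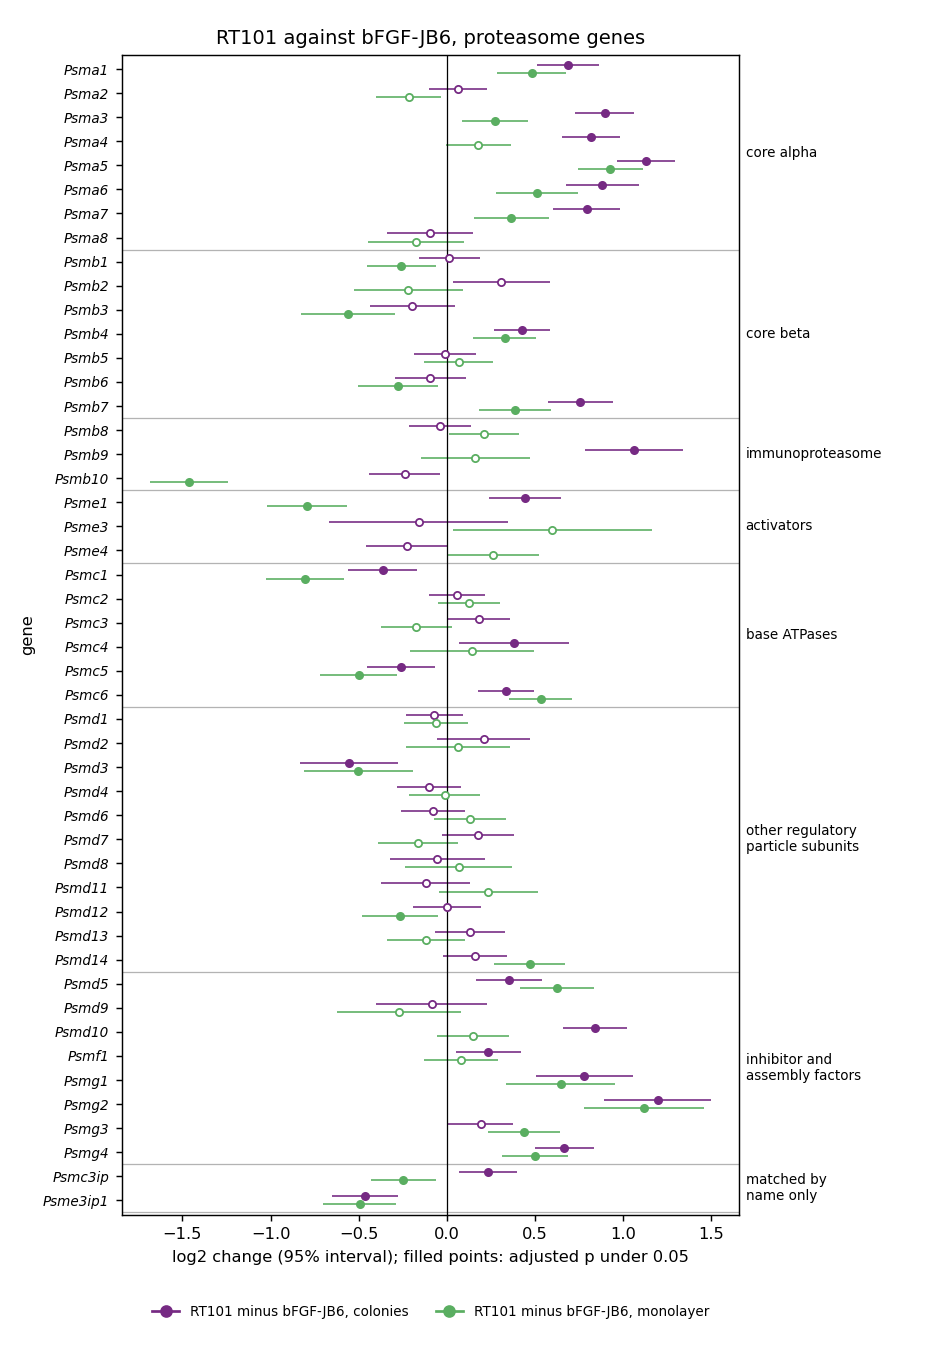
Log2 difference between RT101 and bFGF-JB6 for each of the 48 genes in colonies and in monolayer (points) with 95% intervals (lines); filled points have an adjusted p under 0.05. Psma5 and Psmg2 lie right of 0 in both states (1.13 and 1.20 in colonies), and Psmb10 lies at -1.46 in monolayer.

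Partners of the proteasome outside the Psm names were read from lists. Of 13 measured partners (of 17), 3 rose (23.1%) and 8 fell (61.5%) in RT101 colonies (median -0.43), against 17% and 15.4% of all genes and 27.2% and 24.7% of brighter genes. In bFGF-JB6 colonies 1 rose (7.69%) and 3 fell (23.1%; median -0.12), against 14.1% and 15.3% of all genes and 19.8% and 24.9% of brighter genes, so those counts were near or below the background. Uchl5, a deubiquitinase of the particle, fell by 0.61 in RT101 (adjusted p = 0.000197) and by 0.55 in bFGF-JB6 (adjusted p = 0.000249). Txnl1, a thioredoxin that docks on the particle, fell by 0.45 in RT101 colonies (adjusted p = 0.0213), a call lost in 2 of 11 omissions (adjusted p 0.0711 and 0.217), and by 0.65 in bFGF-JB6 colonies (adjusted p = 0.0013). With its probe sets averaged, the change in bFGF-JB6 was 0.019. Zfand5, a proteasome-binding zinc finger protein, rose by 0.63 in RT101 (adjusted p = 0.00116) and changed by 0.09 in bFGF-JB6 (adjusted p = 0.602). Zfand2a, its heat-inducible relative, fell by 0.72 in RT101 (adjusted p = 4.09e-05) and changed by 0.14 in bFGF-JB6 (adjusted p = 0.243).

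The transcription factor NRF1, encoded by Nfe2l1, is known to raise proteasome genes when proteasome activity is short. Nfe2l1 mRNA measured 8.44, 8.34 and 8.20 in RT101 colonies and 8.84 and 8.89 in RT101 monolayers, a change of -0.54 (0.688-fold, adjusted p = 0.00147). It measured 9.70, 9.66 and 9.58 in bFGF-JB6 colonies and 9.18, 8.86 and 9.05 in bFGF-JB6 monolayers, a change of 0.62 (1.54-fold, adjusted p = 0.000267). The 2 lines thus moved in opposite directions, with a difference of -1.16 (SE 0.15, adjusted p = 4.29e-05). Maff, a small partner of NRF1 on DNA, fell by 1.30 in RT101 (adjusted p = 5.13e-07) and rose by 0.28 in bFGF-JB6 (adjusted p = 0.0351), the second call being lost in 5 of 11 omissions (adjusted p 0.057 to 0.128). Of 7 measured genes of this route (of 8), 2 rose (28.6%) and 4 fell (57.1%) in RT101 colonies, against 17% and 15.4% of all genes and 27.2% and 24.7% of brighter genes. In bFGF-JB6 colonies 4 rose (57.1%) and 1 fell (14.3%), against 14.1% and 15.3% of all genes and 19.8% and 24.9% of brighter genes. Of 4 measured genes of ubiquitin supply and extraction (of 12), 1 fell in RT101 colonies (25%, against 15.4% of all and 24.7% of brighter genes). In bFGF-JB6 colonies 1 of the 4 rose (25%, against 14.1% and 19.8%).

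The 2 genes matched by name only are no part of the proteasome. Psmc3ip, a meiotic recombination factor, fell by 0.35 in bFGF-JB6 colonies (adjusted p = 0.00348). Its difference between the colony changes was 0.48 (adjusted p = 0.00629). Psme3ip1, which encodes a protein binding PA28 gamma, rose by 0.36 in RT101 colonies (adjusted p = 0.0102) and by 0.33 in bFGF-JB6 colonies (adjusted p = 0.0101), where it was the 1 member called higher. Those calls were lost without RT101 monolayer replicate 1 (adjusted p = 0.0982) and without bFGF-JB6 monolayer replicate 3 (adjusted p = 0.0522).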

How the data were processed

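Biotin-labelled cRNA made from total RNA was hybridised to Affymetrix arrays, 1 sample per array (11 arrays), per the labels' protocols. The table deposited by the authors holds 1 log2 value per probe set and array; the submitters' processing notes name RMA, without a version. Array settings are not given in the sources used here. RMA equalises the distributions of the arrays, makes no detection call and understates folds of dim probe sets. Array signals hold no counts, so precision is set by how many arrays a group has.

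Groups came from the sample titles. Of 22690 probe sets, 64 were controls, 20380 named 1 gene symbol, 691 several and 1555 none in the platform annotation. Where several single-gene probe sets named 1 of the 12393 genes, the brightest was used, with no filter on low values; 21 of the 48 members had more than 1, and all 48 symbols were found in the RefSeq gene table of GRCm38.p6. Linear models with group as the only term were fitted to all 11 arrays with limma 3.58.1 in R 4.3.3 (lmFit and eBayes, 7 residual and 6.12 prior degrees of freedom). The 5 contrasts were adjusted by Benjamini-Hochberg over all genes, and calls were made at 0.05. SE is the moderated standard error in log2. Promoters came from RefSeq, GRCm38.p6, and figures were drawn with matplotlib 3.10.9.

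Per-array values are printed for the 6 catalytic core and immunoproteasome genes and Psme1. Up to 3 called, non-overlapping members per class and contrast with the largest change were also picked out. Per-array values are printed for some of these and not for others. From the other lists up to 3 called genes per contrast are named. Other members named were chosen after their values were seen. Members and lists were chosen with earlier results of these data known.

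Alternatives were averaging over the probe sets of a gene or testing each by itself, a trended robust variance, cyclic loess, median centring of arrays, a filter on genes below the median gene, only the groups compared, a replicate block, and leaving out each array or both arrays of raised 3' signal.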

Additional observations from a re-analysis of the deposited data

Results flagged for a closer look

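The colony change differed between the lines, by the test of the difference itself (limma, RT101 minus bFGF-JB6, log2), for 11 of the 48 members. It was called higher for 20.8% and lower for 2.08% of them, against 15% and 12.7% of all genes and 24.3% and 18% of the brighter 6197 genes. The higher share lay between the 2 backgrounds and the lower share below both. The difference was positive for Psme1 (1.24), Psmb10 (1.22), Psmb9 (0.90), Psmd10 (0.69), Psma4 (0.64), Psma3 (0.62), Psmc3ip (0.48), Psmc1 (0.44), Psma7 (0.43) and Psmb7 (0.37), and negative for Psme4 (-0.49). Those of Psma7, Psmb7, Psmc1 and Psme4 were lost in 4, 9, 5 and 7 of the 11 single-array omissions.

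Of the list genes named, the difference was called for Tapbp (2.27), H2-D1 (1.65), H2-K1 (1.53), Tap1 (0.56) and Tap2 (0.53) of antigen processing. It was called for Irf9 (1.95), Stat2 (1.83), Irf7 (1.63), Tyk2 (1.20) and Irf1 (0.47) of interferon signalling. It was also called for Maff (-1.58), Nfe2l1 (-1.16), Zfand2a (-0.86) and Zfand5 (0.54). Those of Tap1, Tap2, Irf1 and Zfand5 were lost in 3, 1, 2 and 6 of the single-array omissions.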

How the results depend on the processing

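The counts of members called are given as higher or lower in the first group named. With the main counts being 1 higher and 19 lower in bFGF-JB6 colonies against monolayer, 6 and 8 in RT101 colonies against monolayer, 10 and 1 for the difference between them, 14 and 11 for RT101 against bFGF-JB6 in monolayer and 19 and 4 in colonies, most alternatives stayed within 1.5 times. The exceptions follow. Averaging a gene's probe sets gave 2 higher in bFGF-JB6 colonies, 2 lower for the difference and 7 lower between colonies. Leaving out both arrays of raised 3' signal gave the same 3 values (2, 2 and 7). Median centring gave 14 lower in RT101 colonies, 4 lower for the difference and 7 lower between monolayers. It also moved the medians over all genes, to -0.10, -0.12 and 0.14 in the same order. For the difference, testing every probe set gave 0 lower, and the level filter, cyclic loess and the trended robust variance each gave 2 lower. The causes were not tested. Leaving out 1 array gave 0 to 2 higher and 13 to 19 lower in bFGF-JB6 colonies, 4 to 6 and 5 to 11 in RT101 colonies, 7 to 11 and 0 to 3 for the difference, 12 to 16 and 6 to 12 between monolayers, and 16 to 19 and 3 to 6 between colonies. With the gene's probe sets averaged, Psmc6 turned to 0.11 in bFGF-JB6 colonies (adjusted p = 0.504) and to -0.045 between colonies (adjusted p = 0.778), Psmb1 to 0.061 between monolayers (adjusted p = 0.747) and Txnl1 to 0.019 in bFGF-JB6 colonies.

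The replicate numbers in the titles did not pair the samples: same-numbered arrays had residual correlations of -0.34 to 0.32, over 0.1 in 5 of 15 pairs (median 0.01). The letters in the descriptions gave 8 of 15 (median 0.11, against -0.04 for unlike letters) and did not pair every sample either. With the replicate block on title numbers the counts were 1 and 17 in bFGF-JB6 colonies, 6 and 7 in RT101 colonies, 8 and 1 for the difference, 14 and 8 between monolayers, and 17 and 4 between colonies. With the block on the letters they were 1 and 18, 5 and 8, 11 and 1, 14 and 8, and 19 and 5 in the same order. Over 156 called results for members and named genes, 3230 refits kept direction and call in 2960, lost the call in 266 and turned the direction in 4; 55 of the 156 lost the call or turned under at least 1 alternative.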
